A study of Mus musculus with 30 samples.

Results

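B16F10, a mouse melanoma line of the C57BL/6 background, was treated in culture for 24 h with IFNβ (1000 U/mL) or with IFNγ (100 ng/mL), and the 2 treatments were compared directly by bulk RNA-seq to find the genes that prefer a type I or a type II interferon. The 6 libraries compared, 3 per interferon, were chosen by their cell line and treatment labels alone from 24 bulk libraries. The 24 covered B16F10 and 6694c2, a pancreatic ductal adenocarcinoma line from a mouse model driven by Pdx-cre, each with 3 libraries of vehicle, IFNγ, IFNβ and a STING agonist (225 µg/mL). Of 49315 genes counted, 18584 had at least 10 reads over the 12 B16F10 libraries and were tested; the vehicle and STING agonist libraries entered the fit for the shared estimate of the spread, and vehicle also gave the untreated level. B16F10 is a single line, each interferon was given at 1 dose for 1 time, and the doses are in different units, so every difference holds for these doses at 24 h.

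Type I interferons such as IFNβ bind the receptor made of IFNAR1 and IFNAR2 and act through the kinases JAK1 and TYK2. They activate ISGF3, a complex that includes STAT2 and IRF9 and binds the interferon-stimulated response element (ISRE) in antiviral genes. IFNγ, the type II interferon, binds IFNGR1 and IFNGR2, acts through JAK1 and JAK2, and works on its target genes through the gamma-activated sequence (GAS). One gene switched on through GAS elements is Irf1, whose product itself binds ISRE-like sites, and another target is Ciita, the master regulator of MHC class II. Many interferon-stimulated genes respond to both interferons.

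The 12 B16F10 libraries held 15543131 to 26399495 reads on genes, with 20220592 to 26399495 in the IFNγ and 22411582 to 23577050 in the IFNβ libraries. Levels are given as CPM, read counts scaled to library size with TMM factors, and compare libraries for 1 gene, not genes with each other. Melanocyte markers were present in every vehicle, IFNγ and IFNβ library: the summed level of 8 (Mitf, Sox10, Tyr, Tyrp1, Dct, Pmel, Mlana, Slc45a2) was 15786 to 16130 CPM with IFNγ and 15310 to 16619 CPM with IFNβ, against 19214 to 19421 CPM in vehicle. Low levels of transcripts typical of 6694c2 were seen in all vehicle, IFNγ and IFNβ libraries of B16F10 cells. For 257 genes at 50 CPM or more in interferon-treated 6694c2 cells and under 2% of that level in vehicle-treated B16F10 cells, the median share of the 6694c2 level was 0.232%, 0.428% and 0.434% in the IFNγ libraries and 0.605%, 0.445% and 0.276% in the IFNβ libraries. The groups overlapped (exact permutation test, two-sided, p = 0.4, where 3 against 3 cannot go below 0.1). Nothing in the labels says that the 3 libraries of a group came from separate cultures, so p-values measure the spread between these libraries, which may be technical.

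IFNγ gave the larger preferences. With edgeR's quasi-likelihood test, 2942 genes (15.8% of those tested) differed between the interferons at an adjusted p under 0.05, of which 1311 (7.05%) were higher with IFNβ and 1631 (8.78%) higher with IFNγ. The counts given below for each gene list are to be read against these shares. Over 2-fold differences were fewer: 158 genes (0.85%) were over 2-fold higher with IFNβ and 254 (1.37%) over 2-fold higher with IFNγ. Among genes with a mean of at least 5 CPM in the higher group, 52 were over 2-fold, 8 over 4-fold and 1 over 8-fold higher with IFNβ, and none was over 16-fold. In the IFNγ direction the same counts were 133, 59 and 29, with 16 genes over 16-fold and 9 over 32-fold. The 3 IFNβ libraries lay wholly above or wholly below the 3 IFNγ libraries for 5069 genes (27.3%). The balance of small differences moved with the scaling: with library totals in place of TMM factors, 2141 genes were higher with IFNβ and 1179 with IFNγ, so that 64.5% of calls were on the IFNβ side in place of 44.6%.

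**Figure D1:**
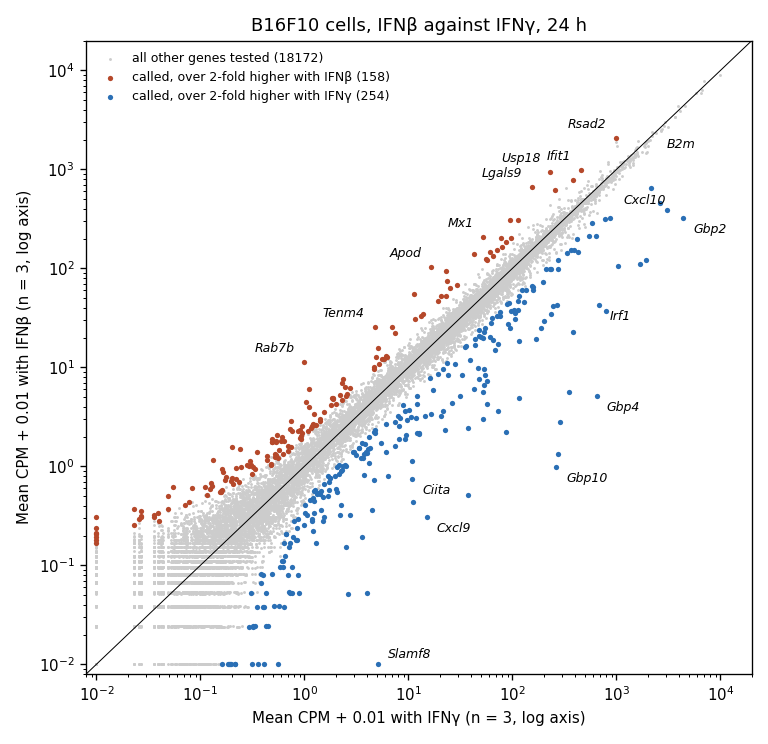
Mean level with IFNβ (vertical axis) against mean level with IFNγ (horizontal axis), in CPM plus 0.01 on log axes, for the genes tested in B16F10 cells; colors mark genes called over 2-fold higher with either interferon, and the diagonal marks equal levels. The genes farthest from the diagonal, such as Gbp10 at a mean of 262 CPM with IFNγ and 0.985 CPM with IFNβ, lie on the IFNγ side, while IFNβ-side genes such as Usp18 (232 and 943 CPM) stay closer to it.

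Promoters of 6 genes that stand for the patterns described here are shown to let the reader see the letters upstream of each. Irf1, Cxcl9 and Slamf8 were far higher with IFNγ, Isg15 and Rsad2 were higher with IFNβ, and Cxcl10 rose strongly with both. Each sequence is the 250 bases before the gene's start, read on the gene's own strand from RefSeq's promoter table (GRCm38.p6), and each ends at the base before the start that the deposited gene annotation gives. Capitals mark letters that match an ISRE-type motif (GAAANNGAA) or a GAS-type motif (TTCNNNGAA), searched on both strands. The Irf1 promoter lies at chr11:53769764-53770013 on the plus strand, and the others lie on the minus strand at chr5:92328080-92328329 (Cxcl9), chr1:172590569-172590818 (Slamf8), chr4:156200819-156201068 (Isg15), chr12:26456453-26456702 (Rsad2) and chr5:92348890-92349139 (Cxcl10).
Irf1: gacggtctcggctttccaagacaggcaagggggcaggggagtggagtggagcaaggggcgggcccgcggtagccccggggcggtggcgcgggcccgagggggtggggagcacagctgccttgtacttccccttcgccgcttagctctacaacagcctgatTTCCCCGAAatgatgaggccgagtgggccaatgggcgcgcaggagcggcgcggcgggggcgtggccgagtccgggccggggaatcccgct
Cxcl9: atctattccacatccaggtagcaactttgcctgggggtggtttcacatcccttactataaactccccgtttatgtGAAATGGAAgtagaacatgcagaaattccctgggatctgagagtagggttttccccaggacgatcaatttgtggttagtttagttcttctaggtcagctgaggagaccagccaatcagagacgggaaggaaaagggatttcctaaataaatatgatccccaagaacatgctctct
Slamf8: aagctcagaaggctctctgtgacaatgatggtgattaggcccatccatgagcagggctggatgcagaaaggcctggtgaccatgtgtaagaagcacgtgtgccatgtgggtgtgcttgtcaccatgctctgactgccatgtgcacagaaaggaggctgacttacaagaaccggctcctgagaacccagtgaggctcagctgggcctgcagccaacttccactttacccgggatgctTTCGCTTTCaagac
Isg15: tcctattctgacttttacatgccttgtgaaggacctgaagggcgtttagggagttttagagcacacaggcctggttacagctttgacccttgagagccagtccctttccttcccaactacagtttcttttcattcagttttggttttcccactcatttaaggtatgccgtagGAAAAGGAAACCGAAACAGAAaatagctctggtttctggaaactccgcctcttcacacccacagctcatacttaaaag
Rsad2: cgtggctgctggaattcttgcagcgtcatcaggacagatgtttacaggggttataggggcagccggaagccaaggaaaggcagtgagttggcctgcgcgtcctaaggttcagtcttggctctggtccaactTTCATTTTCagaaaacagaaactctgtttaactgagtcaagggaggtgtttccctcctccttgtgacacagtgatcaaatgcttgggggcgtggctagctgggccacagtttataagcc
Cxcl10: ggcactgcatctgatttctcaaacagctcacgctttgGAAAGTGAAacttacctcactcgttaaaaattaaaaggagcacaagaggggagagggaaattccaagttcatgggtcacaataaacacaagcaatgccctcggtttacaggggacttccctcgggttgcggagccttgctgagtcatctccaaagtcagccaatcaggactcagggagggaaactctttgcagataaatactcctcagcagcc

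The Irf1 promoter held a GAS-type match whose first letter was 90 bases before the start and no ISRE-type match. Isg15 held 3 overlapping ISRE-type matches, 78, 72 and 66 bases before the start. The other 4 each held 1 ISRE-type match, 14 bases before the start in Slamf8, 119 in Rsad2, 175 in Cxcl9 and 213 in Cxcl10. Such short motifs are common: of 32851 mouse promoters in the table (250 bases before to 50 after the start), 8.56% held the ISRE-type and 8.3% the GAS-type letters. The table matched 107 of 157 named genes over 2-fold higher with IFNβ and 157 of 254 over 2-fold higher with IFNγ, under the 80% needed, so a comparison of motif shares between the groups is void and was not made. A match describes letters only and does not show binding.

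The transcription factors Irf1 and Batf2 were over 16-fold higher with IFNγ, while most factors of their list were not called. Irf1 (ENSMUSG00000018899), the transcription factor that carries much of the secondary IFNγ response, was at 684, 701 and 663 CPM in the IFNγ libraries and 39.03, 40.9 and 47.2 CPM in the IFNβ libraries, against 11.2, 15.4 and 12.8 CPM in vehicle. All IFNγ libraries were far above all IFNβ libraries, which were themselves above vehicle. The difference was 16.1-fold (log2 -4.01, SE 0.0707, adjusted p = 1.04e-33, edgeR). Batf2, a basic leucine zipper factor, was at 66.4, 80.2 and 69.2 CPM with IFNγ and 3.72, 3.25 and 3.82 CPM with IFNβ, a 19.97-fold difference (adjusted p = 6.89e-28, edgeR). Irf2, a close relative of Irf1, was 1.73-fold higher with IFNγ. Of 11 interferon regulatory and BATF factors tested, 3 were higher with IFNγ (Batf2, Irf1 and Irf2), 1 was higher with IFNβ (Irf9) and 7 were not called, with a median log2 difference of -0.16 against 0.0077 over all genes tested. Without IFNγ library 2, Irf7 was also called higher with IFNβ (log2 1.16, adjusted p = 0.0358, edgeR), which gave 2 on that side. With IFNβ the Irf7 level was below what 6694c2 transcripts could bring: its mean in 6694c2 cells times the mean share of such transcripts came to 4.25 CPM with IFNβ and 0.28 CPM with IFNγ, against observed means of 2.81 and 1.59 CPM in B16F10 cells.

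Among 17 interferon receptors, kinases, STATs and their inhibitors, 8 were higher with IFNγ, 4 higher with IFNβ and 5 not called (median log2 -0.15). The 4 became 2 without IFNβ library 3 or without IFNγ library 3. Socs1, which blocks JAK activity as negative feedback, was at 24.4, 29.4 and 25.6 CPM with IFNγ and 4.5, 3.54 and 4.91 CPM with IFNβ, with vehicle at 0.668, 1.08 and 1.21 CPM. Both interferons raised it, and the IFNγ level was 6.12-fold higher (adjusted p = 6.68e-19, edgeR). Socs3, a feedback inhibitor known for cytokines that act through STAT3, was at 55.9, 52.1 and 53.1 CPM with IFNγ and 6.49, 6.84 and 6.56 CPM with IFNβ, an 8.096-fold difference. Stat3 itself was 2.5-fold higher with IFNγ, Jak2, the kinase bound to the IFNγ receptor, 1.77-fold and Jak1, which both receptors use, 1.602-fold. Socs2, an inhibitor of growth hormone signaling, went the other way: it was at 4.06, 4.04 and 4.35 CPM in vehicle, 0.624, 1.87 and 0.614 CPM with IFNγ and 4.24, 4.54 and 4.47 CPM with IFNβ. The IFNγ libraries were all below vehicle, while the IFNβ libraries lay close to it (log2 2.14 between the interferons, adjusted p = 1.09e-08, edgeR).

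Stat2 and Irf9, subunits of ISGF3, differed little. Stat2 was at 117, 126 and 122 CPM with IFNγ and 156, 153 and 162 CPM with IFNβ, 1.296-fold higher with IFNβ. Irf9 was at 86.2, 82.8 and 84.5 CPM with IFNγ and 118, 112 and 115 CPM with IFNβ, 1.36-fold higher with IFNβ. Both genes rose over vehicle with both interferons, and for each the IFNβ and IFNγ libraries did not overlap. Of the receptor subunits, Ifnar2 was 1.42-fold higher with IFNγ, Ifngr2 1.16-fold higher with IFNβ after falling below vehicle with both, and Ifnar1 and Ifngr1 were not called.

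Guanylate-binding proteins (GBPs), large GTPases that attack vacuoles of intracellular pathogens, preferred IFNγ as a family: 10 of 11 tested were higher with IFNγ, none was higher with IFNβ, and the median log2 difference was -3.92. Gbp2 was at 9.91, 29.4 and 18.3 CPM in vehicle, 4534, 4269 and 4384 CPM with IFNγ and 323, 326 and 323 CPM with IFNβ. IFNβ raised it over vehicle (log2 4.06), yet every IFNγ library was above every IFNβ library, 13.6-fold (SE of the log2 difference 0.138, adjusted p = 2.2e-23, edgeR). Gbp10 was at 249.5, 305 and 233 CPM with IFNγ and only 0.649, 0.917 and 1.39 CPM with IFNβ, against 0.0514, 1.42 and 0.837 CPM in vehicle. The IFNβ libraries of Gbp10 lay among the vehicle libraries, and the test against vehicle did not pass (log2 0.28, adjusted p = 0.673, edgeR), while IFNγ was 265-fold higher than IFNβ.

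The tested members lie on 2 chromosomes. The 5 on chromosome 3 (Gbp2, Gbp2b, Gbp3, Gbp5 and Gbp7) ranged from log2 -3.92 for Gbp5 to -0.27 for Gbp2b, which had under 1 CPM in every library and was not called. The 6 on chromosome 5 (Gbp4, Gbp6, Gbp8, Gbp9, Gbp10 and Gbp11) ranged from -8.05 for Gbp10 to -2.47 for Gbp9. Of these, Gbp11 is classed as a polymorphic pseudogene by GENCODE. Gbp4 was at 624, 716 and 602 CPM with IFNγ and 4.85, 5.67 and 4.95 CPM with IFNβ, 125-fold apart (adjusted p = 2.49e-34, edgeR). Gbp8 had 3 reads in all over the IFNβ libraries and none in vehicle, and was at 3.78, 4.899 and 3.36 CPM with IFNγ. Gbp4, Gbp8 and Gbp9 overlap in the annotation and Gbp6 and Gbp10 are near-identical copies, so the split of reads between them is uncertain. Gbp3 and Gbp7 differed least among the called members, 2.45-fold and 2.32-fold.

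Immunity-related GTPases (IRGs), which act with the GBPs against intracellular parasites, behaved alike: 11 of 12 were higher with IFNγ, 1 was not called, and all 12 were above vehicle with either interferon, against 14.1% of all genes raised by IFNβ and 13.5% raised by IFNγ. Their median log2 difference was -3.13. The uncalled member, the pseudogene Gm12187, was near the floor, at 0.303, 0 and 0.0868 CPM with IFNβ and no read in vehicle. It passed the IFNβ test against vehicle only narrowly (adjusted p = 0.0498, edgeR). Iigp1 was at 2.93, 18.8 and 12.3 CPM in vehicle, 3112, 3039.6 and 2967 CPM with IFNγ and 395, 376 and 404 CPM with IFNβ, 7.77-fold higher with IFNγ. Irgm1, a regulator of the family, was at 2180.1, 2144 and 2153 and 689.96, 658 and 616 CPM, 3.298-fold higher with IFNγ (log2 -1.72, SE 0.0561, adjusted p = 4.53e-25, edgeR). In both genes the IFNβ libraries lay well above vehicle and well below IFNγ. Ifi47 differed 9.91-fold, Igtp 5.69-fold and Gm12250 21.4-fold. The near-identical Tgtp1 and Tgtp2 gave 15.96-fold and 15.1-fold, and Gm12185, 103-fold, overlaps Tgtp1, so that reads of the 3 may be shared. Igtp and Irgm2 overlap too.

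Vehicle libraries 2 and 3 carried more of these IFNγ-dominated transcripts than vehicle library 1. Iigp1 was at 2.93, 18.8 and 12.3 CPM, Gm12250 at 0.514, 4.86 and 3.05 CPM and Tgtp1 at 1.03, 7.31 and 6.44 CPM in vehicle libraries 1, 2 and 3. In each case library 1 was the lowest by several times. The vehicle libraries do not enter the direct difference between the interferons except through the shared spread, and their part in the comparisons with vehicle was not tested.

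Genes that supply antigen to MHC class I preferred IFNγ. Of 12 genes for peptide cutting, transport and loading, 10 were higher with IFNγ and 2, the chaperones Calr and Pdia3, were not called (median log2 -1.25). Psmb9, a catalytic subunit of the immunoproteasome, was at 1.03, 1.29 and 1.51 CPM in vehicle, 112, 126 and 110.3 CPM with IFNγ and 16.3, 19.4 and 19.97 CPM with IFNβ. Every library kept this order of treatments, and the interferons differed 6.25-fold (log2 -2.64, SE 0.0825, adjusted p = 1.07e-25, edgeR). The other immunoproteasome subunits differed 5.54-fold (Psmb8) and 2.98-fold (Psmb10), the peptide transporter Tap2 6.798-fold and its partner Tap1 1.896-fold. The loading editor Tapbpl differed 6.78-fold and tapasin, Tapbp, 1.81-fold. Erap1, which trims peptides in the endoplasmic reticulum, was 2.82-fold higher with IFNγ. Psmb9 and Tap1 overlap on opposite strands, and whether counting used the strand is not given in the sources used here.

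The class I molecules themselves were divided. B2m, the light chain, was at 353, 371 and 391 CPM in vehicle, 2401, 2378 and 2469 CPM with IFNγ and 2357, 2241 and 2432 CPM with IFNβ. The interferon libraries overlapped and the difference did not pass the test (log2 -0.04, 95% interval -0.13 to 0.05, adjusted p = 0.629, edgeR), while both interferons raised it over vehicle. H2-K1, a classical heavy chain, was at 118, 146 and 117 CPM with IFNγ and 74.8, 82.4 and 101 CPM with IFNβ, 1.47-fold higher with IFNγ (adjusted p = 2.12e-05, edgeR). H2-D1, the other classical heavy chain of this strain, was at 552, 597 and 549 and 588, 672 and 787 CPM, 1.21-fold higher with IFNβ with 1 IFNβ library inside the IFNγ range (adjusted p = 0.00195, edgeR). H2-T23, the mouse Qa-1 chain that presents to NK cell receptors, was at 178, 215 and 169 CPM with IFNγ and 19.5, 25.7 and 29.0 CPM with IFNβ, 7.57-fold higher with IFNγ. Nlrc5, the transactivator of class I genes, was 3.82-fold higher with IFNγ. Over the 15 heavy chain, light chain and activator genes, 5 were higher with IFNγ, 1 with IFNβ and 9 were not called (median log2 -0.18). The others of the 15 had too few reads for a call to be likely where the mean was under 1 CPM with both interferons. Among the 9 genes with a mean of at least 1 CPM with either interferon, the same 5 and 1 were called (median log2 -0.79). Several H2-Q and H2-T genes are near-identical copies.

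MHC class II genes rose with IFNγ: of 16 in the pathway, 10 were above vehicle with IFNγ and none with IFNβ. Over all genes tested, 13.5% were raised by IFNγ and 14.1% by IFNβ. In a list of 16, none with IFNβ is little below that share and is not read as particular to these genes. In the direct test 8 were higher with IFNγ and none with IFNβ (median log2 -0.68). Ciita was at 0.205, 0.645 and 1.05 CPM in vehicle, 9.94, 12.6 and 10.02 CPM with IFNγ and 1.17, 0.625 and 0.391 CPM with IFNβ. IFNβ library 1 lay just above the highest vehicle library, and the other IFNβ libraries lay within the vehicle range. The test of IFNβ against vehicle did not pass (log2 0.15, adjusted p = 0.838, edgeR). IFNγ was 14.8-fold higher than IFNβ (log2 -3.88, SE 0.263, adjusted p = 5.78e-15, edgeR). The peptide editors H2-DMb1 and H2-DMa were 4.27-fold and 3.18-fold higher with IFNγ, and Rfx5, a factor of the class II promoter complex, 1.57-fold.

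The class II chains moved less and overlapped more. Cd74, the invariant chain, was at 10.4, 20.1 and 22.5 CPM in vehicle, 34.4, 45.9 and 39.8 CPM with IFNγ and 31.8, 19.01 and 15.1 CPM with IFNβ, 1.82-fold higher with IFNγ (adjusted p = 0.000125, edgeR). H2-Aa was at 12.2, 14.1 and 12.1 CPM with IFNγ and 12.5, 7.09 and 3.43 CPM with IFNβ, and IFNβ library 1 lay inside the IFNγ range (adjusted p = 0.0382, edgeR). H2-Ab1 and H2-Eb1 likewise overlapped between the groups, with adjusted p-values of 0.0475 and 0.0187 (edgeR). These calls depended on the fit: with edgeR's robust fit 4 class II genes were called higher with IFNγ, and neither Cd74 (adjusted p = 0.112) nor H2-Aa (adjusted p = 0.408) was among them. Leaving out IFNβ library 2, IFNβ library 3 or IFNγ library 2 gave 5 class II genes in place of 8, and H2-Aa was called without IFNβ library 1 but not without any of the other 5 libraries (adjusted p from 0.0595 to 0.238, edgeR).

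Epithelial and B cell transcripts were present at low levels, and some of them were highest in the same libraries. The summed level of 7 epithelial markers (Epcam, Krt7, Krt8, Krt18, Krt19, Cdh1, Cldn4; all with reads) was 15.4, 37.6 and 36.1 CPM in the IFNγ libraries and 53.1, 37.5 and 17.1 CPM in the IFNβ libraries, against 13.6 to 19.5 CPM in vehicle. The 6 immune markers tested, of 7 listed, summed to 5.57, 6.85 and 7.83 CPM with IFNγ and 7.99, 5.25 and 3.40 CPM with IFNβ. IFNβ library 1, the highest in H2-Aa and Cd74 among its group, was also the highest in both sums, in Cd79a (3.89, 2.33 and 1.22 CPM), a B cell receptor chain, and in Krt8 (25.9, 16.7 and 6.599 CPM), and IFNβ library 3 was the lowest. In bulk samples more cells of a type and more RNA per cell cannot be told apart, and the part of these transcripts in the class II levels was not tested. Of 8 immune genes tested none was called, and of 13 epithelial genes Cdh1 and Epcam were called higher with IFNβ, with overlapping libraries, and Muc1 higher with IFNγ. For Cdh1, the mean in 6694c2 cells times the share of its transcripts came to 2.304 CPM with IFNγ and 3.38 CPM with IFNβ, against observed means of 2.39 and 3.62 CPM. Other genes departed from this product in both directions. For Epcam it was 0.00857 and 0.0103 CPM, far below the observed 0.295 and 1.02 CPM. For Krt8 it was 24.6 and 28.4 CPM, above the observed 14.8 and 16.4 CPM. The source of these transcripts was not tested. The 2 on the IFNβ side became 0 to 4 when 1 library was left out, 4 without IFNβ library 3 and 0 without IFNβ library 1, IFNγ library 1 or IFNγ library 3, and without IFNβ library 1 an immune gene was called higher with IFNγ.

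**Figure D2:**
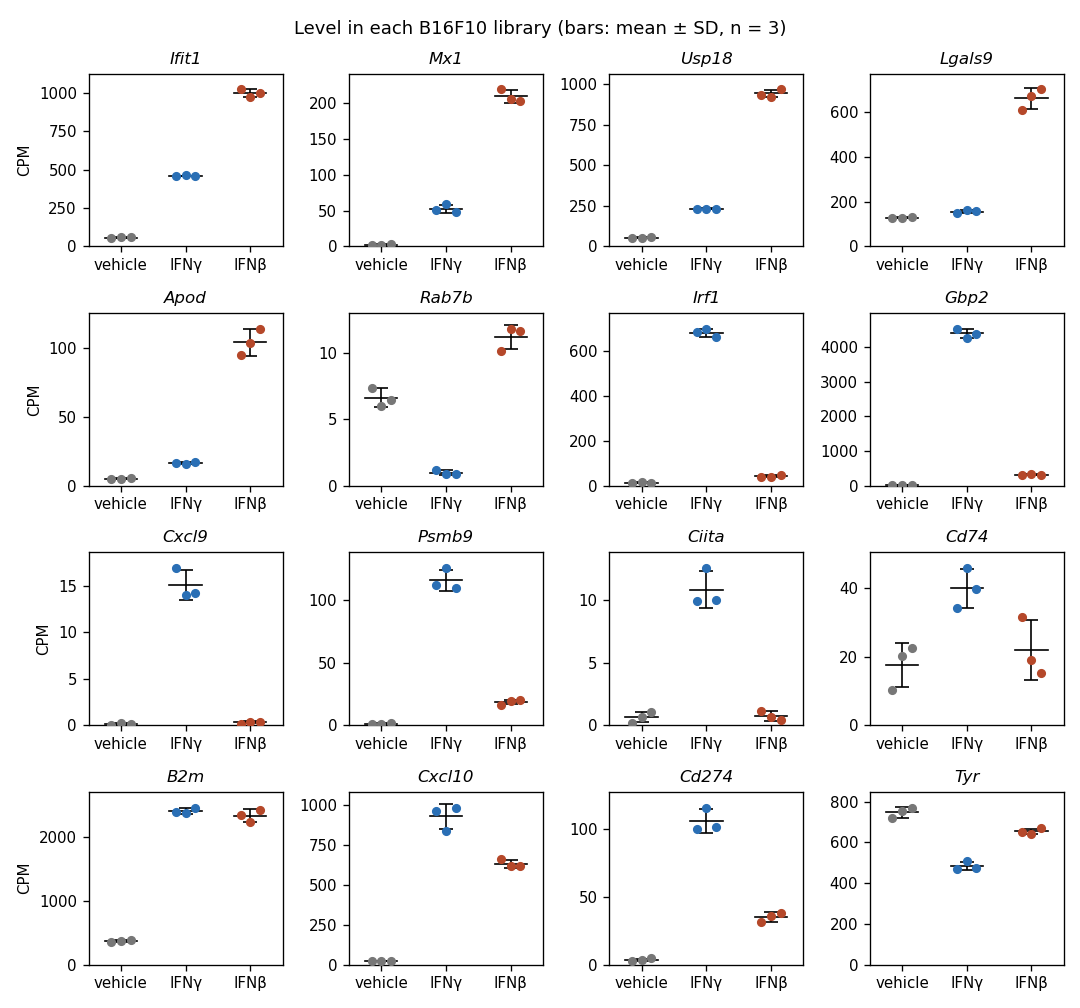
Level (CPM, linear axis from 0) of 16 genes, 1 per panel, in each B16F10 library, with the vehicle, IFNγ and IFNβ libraries as separate columns of 3 points and black bars for the mean ± SD. Ifit1, Mx1, Usp18, Lgals9, Apod and Rab7b are highest with IFNβ, Irf1, Gbp2, Cxcl9, Psmb9, Ciita and Cd274 are highest with IFNγ, and the IFNβ and IFNγ points overlap for B2m.

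The CXCR3 ligands, chemokines that draw T cells and NK cells, split by gene. Cxcl9 was at 0, 0.258 and 0.0837 CPM in vehicle, 16.9, 13.99 and 14.2 CPM with IFNγ and 0.173, 0.375 and 0.347 CPM with IFNβ. IFNβ did not raise it over vehicle by the test (log2 1.28, adjusted p = 0.117, edgeR), and IFNγ was 49.4-fold higher than IFNβ (log2 -5.63, SE 0.255, adjusted p = 1.8e-20, edgeR). Cxcl10, its neighbor on chromosome 5, was at 19.98, 24.0 and 23.7 CPM in vehicle, 963, 839 and 984 CPM with IFNγ and 662, 619.6 and 617 CPM with IFNβ. Both interferons raised it by over 4 on the log2 scale, and the IFNγ libraries were all above the IFNβ libraries, 1.47-fold (adjusted p = 1.58e-09, edgeR). Cxcl11, the third neighbor, was at 1.05, 1.06 and 1.28 CPM with IFNγ and 0.476, 0.417 and 0.434 CPM with IFNβ, a difference that did not pass (adjusted p = 0.0996, edgeR). GENCODE classes mouse Cxcl11 as a polymorphic pseudogene, and whether its transcripts give a working chemokine here was not tested. Ccl5, a chemokine for T cells, was 1.5-fold higher with IFNγ. Of 11 chemokines tested, of 15 listed, 3 were higher with IFNγ and none with IFNβ (median log2 -0.55).

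Ligands of immune checkpoints differed in direction. Cd274, which encodes PD-L1, was at 2.93, 3.35 and 4.48 CPM in vehicle, 100.1, 116 and 102 CPM with IFNγ and 31.3, 36.1 and 38.1 CPM with IFNβ. Both interferons raised it, in every library, and IFNγ was 3.01-fold higher (log2 -1.59, SE 0.0801, adjusted p = 5.6e-19, edgeR). Tnfrsf14, which encodes the BTLA ligand HVEM, was at 3.59, 5.81 and 4.49 CPM with IFNγ and 0.606, 0.792 and 0.781 CPM with IFNβ, 6.29-fold higher with IFNγ. Lgals9, which encodes galectin-9, a ligand of TIM-3, was at 127, 127 and 130.04 CPM in vehicle, 149, 161 and 158 CPM with IFNγ and 613, 672 and 704 CPM with IFNβ. Its IFNγ libraries lay just above vehicle and all IFNβ libraries far above both, 4.26-fold over IFNγ (log2 2.09, SE 0.0541, adjusted p = 2.07e-28, edgeR). Cd47, the signal that restrains phagocytosis, was at 103, 105 and 101 and 160.1, 152 and 161 CPM, 1.53-fold higher with IFNβ. Pvr, a ligand of TIGIT, was 1.17-fold higher with IFNβ. Of 15 such ligands tested, 3 were higher with IFNβ, 2 with IFNγ and 10 were not called (median log2 0.04), and Pdcd1lg2, which encodes PD-L2, had under 1 CPM in every library.

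Of 17 genes of cell death, 5 were higher with IFNγ, 1 with IFNβ and 11 were not called (median log2 -0.19). Casp12, an inflammatory-type caspase, was at 2.62, 2.62 and 2.09 CPM in vehicle, 59.9, 53.5 and 56.01 CPM with IFNγ and 8.52, 6.34 and 6.99 CPM with IFNβ, 7.76-fold higher with IFNγ (adjusted p = 3.44e-24, edgeR). Gsdmd, the pore-forming gasdermin, differed 2.86-fold. Tnfrsf1a, the main TNF receptor, was at 269, 264 and 251 CPM with IFNγ and 142, 148 and 146 CPM with IFNβ against 134, 143 and 136 CPM in vehicle. It rose with IFNγ, and its IFNβ level did not pass the test against vehicle (log2 0.08). Tnfrsf10b, the mouse TRAIL receptor, was the gene higher with IFNβ, 1.38-fold. Tnfsf10, its ligand TRAIL, was at 5.15, 5.71 and 5.15 CPM with IFNγ and 7.66, 6.21 and 6.03 CPM with IFNβ, and Mlkl, the executor of necroptosis, at 269, 270.3 and 257 and 256, 243 and 269 CPM. Both rose over vehicle with either interferon, and neither differed between them by the test.

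Further genes had an IFNγ preference. Slamf8, a receptor of the SLAM family, had no read in the vehicle and IFNβ libraries and was at 3.86, 6.11 and 5.29 CPM with IFNγ. Set against the level that 3 counts over the 3 IFNβ libraries would give, 0.0428 CPM, it was at least 119-fold higher with IFNγ (adjusted p = 1.68e-13, edgeR). Apol6, an apolipoprotein L, was at 0, 0.9 and 1.004 CPM in vehicle, 269, 305 and 251 CPM with IFNγ and 1.21, 1.63 and 1.17 CPM with IFNβ, 204-fold higher with IFNγ. Apol10b, of the same family, differed 25.6-fold, and Gm4841 and F830016B08Rik, neighbors of Iigp1 on chromosome 18, 61.6-fold and 39.4-fold, the second of them counted among the IRGs above. Wars, the tryptophanyl-tRNA synthetase known as IFNγ-inducible, was at 201, 199 and 205 CPM in vehicle, 541, 569.9 and 529 CPM with IFNγ and 209, 215 and 219 CPM with IFNβ, 2.55-fold higher with IFNγ (adjusted p = 1.6e-23, edgeR). Its IFNβ level did not pass the test against vehicle. Of 10 enzymes and transporters of tryptophan, arginine and nitric oxide metabolism tested, 2 were higher with IFNγ (Wars and Acod1, the latter with 1 read in all over the IFNβ libraries) and 3 with IFNβ, of which Gch1, the first enzyme of tetrahydrobiopterin synthesis, differed 1.39-fold and Ass1 and Slc7a5 less. Without IFNβ library 1, IFNβ library 2, IFNγ library 2 or IFNγ library 3, 1 gene was called on the IFNγ side in place of 2.

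Both interferons raised most antiviral genes: of 39 antiviral interferon-stimulated genes tested, of 42 listed, 36 were above vehicle with IFNβ and 35 with IFNγ. Over all genes tested, 14.1% were raised by IFNβ and 13.5% by IFNγ. In the direct test 23 were higher with IFNβ, 9 higher with IFNγ and 7 not called (median log2 0.44). Mx1, of the Mx family of GTPases, was at 1.34, 2.24 and 2.68 CPM in vehicle, 50.6, 58.8 and 48.3 CPM with IFNγ and 219, 206 and 203 CPM with IFNβ. The 3 treatments did not overlap, and IFNβ was 3.99-fold higher (log2 1.996, SE 0.0791, adjusted p = 2.41e-22, edgeR). Mx2 differed 4.11-fold. Usp18, the protease that removes ISG15 and restrains type I receptor signaling, was at 229, 233 and 233 CPM with IFNγ and 936, 924 and 969 CPM with IFNβ, 4.07-fold higher with IFNβ (log2 2.03, SE 0.054, adjusted p = 5.11e-28, edgeR). Isg15, the ubiquitin-like modifier, was at 54.02, 48.1 and 55.1 CPM in vehicle, 385, 382 and 376 CPM with IFNγ and 724, 755 and 841 CPM with IFNβ, 2.03-fold higher with IFNβ. Rsad2, which encodes viperin, was at 991, 1046 and 952 and 2182, 2042 and 1982 CPM, 2.08-fold higher with IFNβ. For Usp18, Isg15 and Rsad2 every IFNβ library was above every IFNγ library, and all were above vehicle.

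Not every antiviral gene preferred IFNβ. Zbp1, a sensor of Z-form nucleic acids, was at 411, 422 and 408 CPM with IFNγ and 186, 198 and 211 CPM with IFNβ, 2.08-fold higher with IFNγ. Parp14 was 1.91-fold, Parp9 1.46-fold and its partner Dtx3l 1.38-fold higher with IFNγ, while Parp12 overlapped between the groups. Uba7, the activating enzyme for ISG15, was 1.37-fold higher with IFNγ, whereas the conjugating enzyme Ube2l6 was 1.31-fold higher with IFNβ. Ifi27 fell with both interferons: it was at 299, 293 and 310.5 CPM in vehicle, 244, 237 and 231 CPM with IFNγ and 92.8, 99.3 and 107 CPM with IFNβ. Its IFNβ libraries were the lowest, 2.38-fold below IFNγ (adjusted p = 8.56e-21, edgeR). Ifi27l2a, of the same family, went the other way at low level, 2.63-fold higher with IFNβ.

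The OAS and IFIT families had the highest shares of members called higher with IFNβ among the 19 lists. Of 8 OAS family genes, which include the enzymes that make a second messenger of RNA decay, 7 were higher with IFNβ and 1, Oasl2, was not called (median log2 1.51). Oas2 was at 2.67, 1.98 and 2.22 CPM in vehicle, 24.2, 24.4 and 21.6 CPM with IFNγ and 72.96, 71.4 and 76.8 CPM with IFNβ, 3.15-fold higher with IFNβ. Oasl1, which restrains translation of Irf7, was at 7.25, 7.32 and 6.05 and 25.4, 26.6 and 25.2 CPM, 3.73-fold higher with IFNβ (adjusted p = 2.04e-16, edgeR). Both kept vehicle, IFNγ and IFNβ libraries apart in that order. The near-identical Oas1a and Oas1g gave 2.73-fold and 3.29-fold, and Oas3 2.45-fold. Oasl2 was at 319, 342 and 325 CPM with IFNγ and 365, 358 and 364 CPM with IFNβ, a difference of log2 0.14 (95% interval 0.01 to 0.27).

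Of 6 IFIT genes, which bind foreign RNA ends, 5 were higher with IFNβ and 1, Ifit1bl1, at about 1 CPM, was not called (median log2 0.94). Ifit1 was at 52.2, 59.9 and 58.3 CPM in vehicle, 458, 461 and 457 CPM with IFNγ and 1023, 969.8 and 997 CPM with IFNβ. The libraries of each treatment agreed closely and did not overlap, and IFNβ was 2.17-fold higher (log2 1.120, SE 0.0506, adjusted p = 1.65e-20, edgeR). Ifit2 differed least, 1.19-fold, and the near-identical Ifit3 and Ifit3b gave 1.899-fold and 2.44-fold. The cytosolic RNA sensors were higher with IFNβ in 4 of 5 genes (median log2 0.55): Ifih1, which encodes MDA5, 1.64-fold, Ddx58, which encodes RIG-I, 1.49-fold, Dhx58 1.47-fold and Trim25 1.46-fold. Mavs, the adaptor that RIG-I and MDA5 share, was not called.

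**Figure D3:**
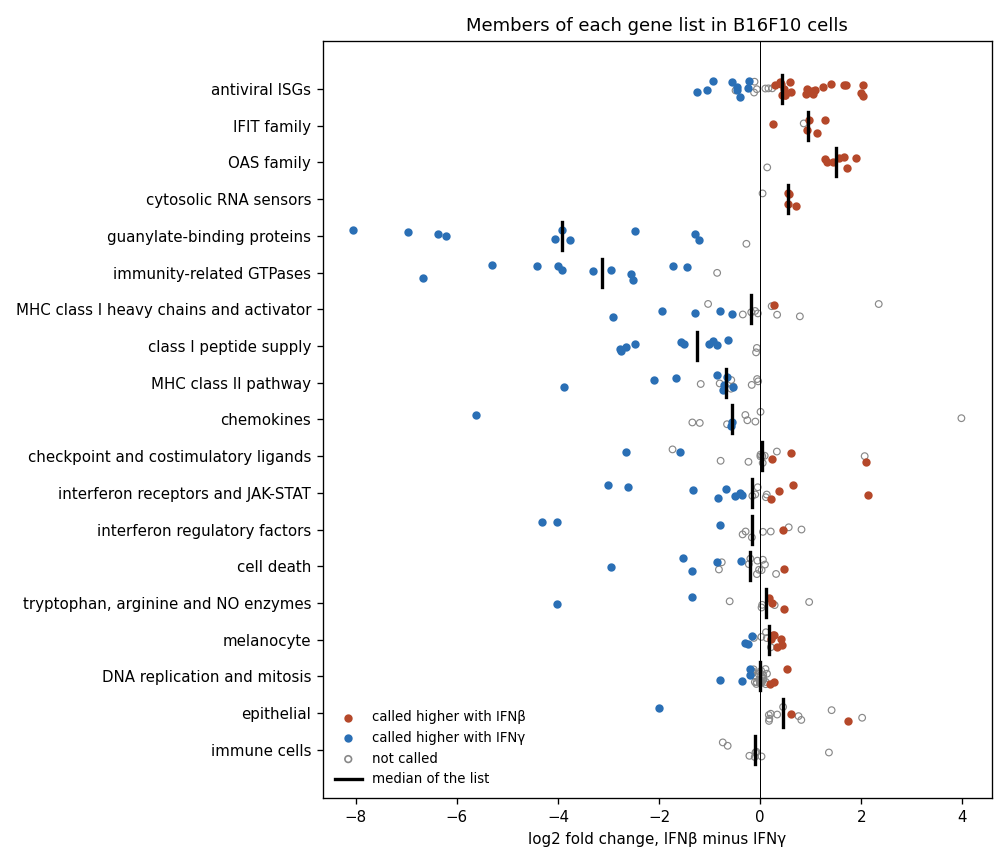
Log2 difference between IFNβ and IFNγ (horizontal axis, positive for higher with IFNβ) for each tested member of 19 gene lists (rows), with filled points for called genes, open points for the others and a vertical bar at each list's median. Members of the OAS and IFIT families sit to the right of 0, GBPs, IRGs and class I peptide supply to the left, and melanocyte and replication genes close to 0.

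The 6 largest IFNβ preferences under the naming rule were in genes outside the antiviral lists, Rab7b, Apod, Gm2619, Tenm4, Plscr2 and Lgals9, the last a checkpoint ligand described above. Apod, which encodes apolipoprotein D, a lipocalin, was at 5.19, 4.56 and 5.77 CPM in vehicle, 16.4, 15.6 and 17.5 CPM with IFNγ and 94.9, 104 and 114 CPM with IFNβ. Both interferons raised it and IFNβ was 6.31-fold higher than IFNγ (log2 2.66, SE 0.0847, adjusted p = 2.14e-25, edgeR). Plscr2, a phospholipid scramblase, was at 14.0, 8.74 and 11.2 CPM with IFNγ and 59.2, 57.5 and 48.8 CPM with IFNβ, 4.82-fold higher with IFNβ. Gm2619, an unnamed gene model that overlaps other models on both strands, was at 1.13, 0.707 and 1.47 CPM with IFNγ and 6.45, 5.003 and 6.77 CPM with IFNβ.

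Some genes lay on opposite sides of vehicle with the 2 interferons. Rab7b, a Rab GTPase of the endosomal pathway, was at 7.39, 5.98 and 6.49 CPM in vehicle, 1.21, 0.909 and 0.851 CPM with IFNγ and 10.2, 11.8 and 11.6 CPM with IFNβ. It fell with IFNγ (log2 -2.71) and rose with IFNβ (0.77), with no overlap between any treatments, and the 11.1-fold difference between the interferons was the only one over 8-fold on the IFNβ side at 5 CPM or more (SE 0.189, adjusted p = 6.31e-18, edgeR). Tenm4, a teneurin membrane protein, was at 17.2, 19.01 and 21.3 CPM in vehicle, 3.86, 6.01 and 4.35 CPM with IFNγ and 22.2, 31.4 and 22.2 CPM with IFNβ. It fell with IFNγ (log2 -2.03) and was slightly raised by IFNβ (0.40). Egr1, an immediate early transcription factor, fell with IFNγ (log2 -0.74) and rose with IFNβ (0.98), at 2.26, 2.02 and 2.74 CPM and 7.05, 7.38 and 8.64 CPM. Prph, which encodes the neuronal intermediate filament peripherin, was the reverse: it was at 7.24, 9.33 and 7.11 CPM in vehicle, 114, 121 and 113 CPM with IFNγ and 5.15, 3.002 and 6.38 CPM with IFNβ. It rose with IFNγ (log2 3.87) and fell with IFNβ (-0.71), a 24.01-fold difference (adjusted p = 3.09e-28, edgeR).

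Called pigment and cell cycle genes differed by under 2-fold between the interferons. Of 14 melanocyte genes tested, of 16 listed, 6 were higher with IFNβ, 3 with IFNγ and 5 not called, all within log2 -0.29 and 0.43 (median 0.17). Over all genes tested, 7.05% were higher with IFNβ and 8.78% higher with IFNγ, so this list held more calls than the background, all of small size. Tyr, the rate-limiting enzyme of melanin synthesis, was at 718, 754 and 771 CPM in vehicle, 471, 506 and 476 CPM with IFNγ and 652, 642 and 669 CPM with IFNβ. Both interferons lowered it, IFNγ more, and the interferons differed 1.35-fold (adjusted p = 4.08e-09, edgeR). Slc45a2, a melanosome transporter, was at 895, 919.9 and 945, 512, 538 and 513 and 679, 678 and 726 CPM in the same order of treatments, 1.33-fold higher with IFNβ. Mitf, the melanocyte master regulator, was 1.21-fold higher with IFNβ, and Dct and Mlana were 1.115-fold and 1.17-fold higher with IFNγ.

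Of 33 genes of DNA replication and mitosis tested, of 34 listed, 26 were not called, 4 were higher with IFNγ and 3 with IFNβ (median log2 -0.0040). Library totals in place of TMM factors gave 2 and 7, and without IFNγ library 2 the 3 became 1. Calls in either direction made up 15.8% of all genes tested. Ccnb2, a mitotic cyclin, was at 118, 119 and 121 CPM in vehicle, 98.3, 96.1 and 95.6 CPM with IFNγ and 52.7, 55.1 and 59.9 CPM with IFNβ, 1.73-fold higher with IFNγ (adjusted p = 7.17e-14, edgeR). Cdkn1a, which encodes the cell cycle inhibitor p21, was at 592, 575 and 577 CPM in vehicle, 527, 541 and 521 CPM with IFNγ and 691, 786 and 810.4 CPM with IFNβ. It rose over vehicle with IFNβ only by the test and was 1.44-fold higher than with IFNγ (adjusted p = 1.98e-10, edgeR). Mki67 and Pcna, markers of cycling cells, fell below vehicle with both interferons and overlapped between them, at log2 -0.01 (95% interval -0.18 to 0.15) and -0.004 (-0.10 to 0.09).

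Whether these preferences were those of B16F10 cells was tested against 6694c2 cells given the same 2 interferons. The difference between IFNβ and IFNγ itself differed between the lines for 1786 of 21138 genes tested over the 24 libraries (8.45%), more negative in B16F10 cells for 969 and more positive for 817. Ifit1 was at a mean of 27.9 CPM with IFNγ and 962 CPM with IFNβ in 6694c2 cells, a log2 difference of 5.11 against 1.120 in B16F10 cells (interaction -3.997, SE 0.0898, adjusted p = 1.66e-30, edgeR). Rsad2 was at 5.85 and 562 CPM in 6694c2 cells (log2 6.67), against 1.05 in B16F10 cells. In both genes the IFNγ mean of 6694c2 cells was far below that of B16F10 cells, 459 CPM for Ifit1 and 996 CPM for Rsad2. Low levels of melanocyte transcripts were seen in 6694c2 libraries. Dct was at a mean of 30.4 CPM with IFNγ and 12.6 CPM with IFNβ there, against 6537 and 5862 CPM in B16F10 cells. The part of B16F10 transcripts in the low Rsad2 level of 6694c2 cells with IFNγ was not tested. Irf7, the factor that amplifies type I interferon responses, was at 1.79, 2.32 and 0.662 CPM with IFNγ and 2.86, 2.502 and 3.08 CPM with IFNβ in B16F10 cells (adjusted p = 0.0985, edgeR, not called), and at a mean of 76.9 CPM and 962 CPM in 6694c2 cells. The share of 6694c2 transcripts would give 4.25 CPM of Irf7 in the IFNβ libraries, above the mean of 2.81 CPM seen there. In the IFNγ libraries it would give 0.28 CPM, below the mean of 1.59 CPM. How much of the Irf7 level came from B16F10 cells themselves was not tested.

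The reverse was seen for genes with little response in B16F10 cells. Irf8, an interferon regulatory factor of myeloid cells, was at 1.75, 2.12 and 1.702 CPM with IFNγ and 2.03, 1.58 and 1.35 CPM with IFNβ in B16F10 cells, with overlapping libraries, and at a mean of 33.1 CPM and 2.13 CPM in 6694c2 cells. The log2 difference was -0.16 in B16F10 and -3.97 in 6694c2 cells (interaction adjusted p = 9.5e-13, edgeR). Cxcl10 preferred opposite interferons in the lines: its mean was 194 CPM with IFNγ and 705 CPM with IFNβ in 6694c2 cells, a log2 difference of 1.86 against -0.55 in B16F10 cells (interaction adjusted p = 1.01e-19, edgeR). H2-K1 did so too, at 0.75 in 6694c2 cells and -0.56 in B16F10 cells. The IFNγ preference of Ciita (log2 -4.59 in 6694c2 cells, interaction adjusted p = 0.366, edgeR) and of Cd274 (-1.69, 0.78) did not differ between the lines by the test. Rab7b, the gene with the largest IFNβ preference in B16F10 cells at 5 CPM or more, was at 6.897 CPM and 7.403 CPM in 6694c2 cells and was not called there (interaction 3.35, adjusted p = 1.03e-14, edgeR).

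**Figure D4:**
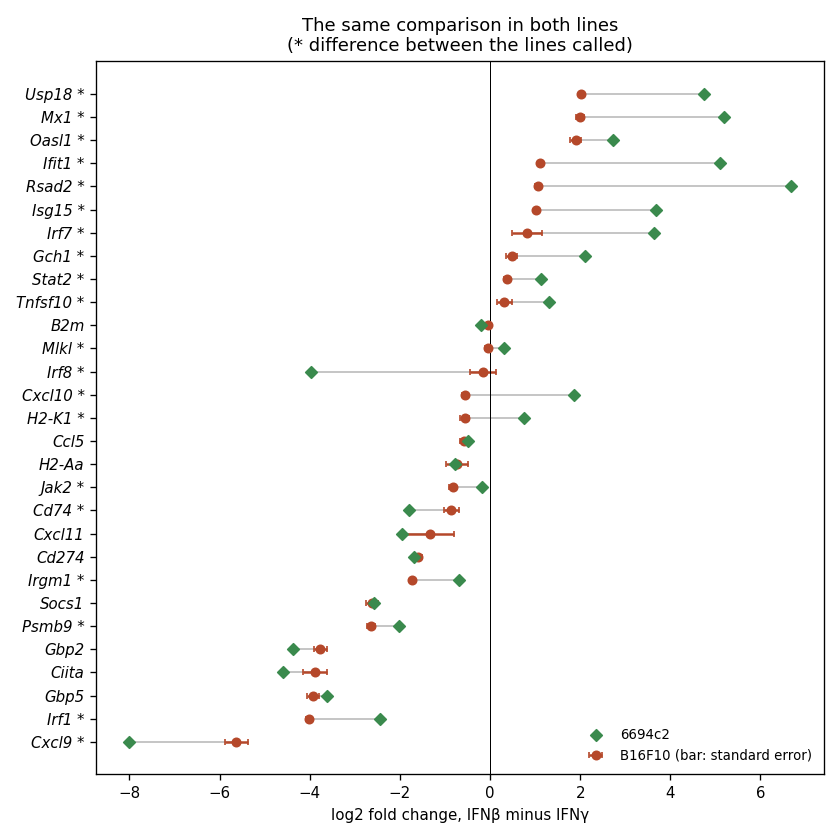
Log2 fold change, IFNβ minus IFNγ (horizontal axis), for interferon-response genes named in the text (rows), with circles and standard errors for B16F10 cells and diamonds for 6694c2 cells; an asterisk marks genes whose difference itself differed between the lines. The diamonds of Rsad2, Ifit1 and Irf7 lie far to the right of their circles and that of Irf8 far to the left, while both symbols of Ciita and Cd274 lie left of 0.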

How the data were processed

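Bulk RNA-seq of polyA RNA was analysed for 24 libraries of B16F10 and 6694c2 cells, and the single-cell samples of the series were not analysed here. The deposited files hold whole-number read counts per gene, made by the authors, per the study's methods, by adapter trimming with cutadapt, alignment of paired reads with STAR and counting with Rsubread; the labels name the mm10 build. The annotation release, the strand setting and the treatment of reads with several matches are not given in the sources used here, so near-identical and overlapping genes are uncertain. Groups came from the cell line and treatment labels.

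Counts of the 12 B16F10 libraries (genes with at least 10 reads) were fitted in edgeR 4.0.16 (R 4.3.3, limma 3.58.1) with TMM factors, group means, glmQLFit and glmQLFTest. Calls required a Benjamini-Hochberg adjusted p under 0.05 over all genes tested. Standard errors are the log2 fold change divided by the square root of F, and CPM was computed here with the TMM factors. The difference between the lines was the interaction in a fit of all 24 libraries. Depth was 15543131 to 26399495 reads on genes in the B16F10 libraries, and limits precision for genes near 1 CPM. Intervals and the 3-count floor cover counting error only where stated for counts. Replicate libraries correlated at 0.991 to 0.997 and differed by more than counting noise, so none was treated as a duplicate.

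Named genes were the members of the 19 lists, with full values for the leading interferon genes, and the 12 genes per direction with the largest fold change among those called, over 2-fold, without overlap of libraries and at 5 CPM or more in the higher group. The members and lists were chosen with earlier results of these data known, and lists are described by counts and medians with no test. A few list members are not reported here and were left out of their lists. Scripts were tested on simulated data. Alternatives were DESeq2 1.42.0, its size factors, library totals, a robust fit, other filters, the 6 libraries alone, a replicate block and leaving out each library.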

Additional observations from a re-analysis of the deposited data

Results flagged for a closer look

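The difference between IFNβ and IFNγ was itself different between B16F10 and 6694c2 cells for 1786 of 21138 genes by the interaction in edgeR, 969 more negative and 817 more positive in B16F10 cells. Of the 284 listed and leading genes, 140 were called, and of 30 leading interferon genes tested, 20. The 284 include genes named for their large difference in B16F10 cells, which is itself a part of the interaction. The lists were also chosen with earlier results of these data known. The 140 and 20 are therefore counts only and are not to be set against the share over all genes. The values below are the interaction, the log2 difference in B16F10 cells minus that in 6694c2 cells, and a negative value means that B16F10 cells leaned more to IFNγ.

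Among antiviral genes the interaction was -5.63 for Rsad2, -4.00 for Ifit1, -3.21 for Mx1, -2.72 for Usp18 and -2.67 for Isg15, all higher with IFNβ in both lines. The part of B16F10 transcripts in the 6694c2 levels was not tested. Irf7 gave -2.83, with a B16F10 level no higher than the share of 6694c2 transcripts would bring with IFNβ, Oasl1 -0.84 and Stat2 -0.76. Herc6 (-2.29), Zbp1 (-1.93), Rtp4 (-1.60), Uba7 (-1.16), Ifi203 (-1.08), Cxcl10 (-2.43) and H2-K1 (-1.31) were called higher with IFNγ in B16F10 cells and higher with IFNβ in 6694c2 cells.

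Gch1 gave -1.65, Irf1 -1.58, Irgm1 -1.05, Tnfsf10 -1.0, Jak2 -0.65, Psmb9 -0.63 and Mlkl -0.37. Gch1 was higher with IFNβ in both lines and Irf1, Irgm1 and Psmb9 higher with IFNγ in both. In the positive direction the interaction was 3.80 for Irf8, 2.37 for Cxcl9 and 0.93 for Cd74. Egr1 (2.90), Cdkn1a (0.99), Rab27a (0.70) and Ccne1 (0.68) were called higher with IFNβ in B16F10 cells and higher with IFNγ in 6694c2 cells.

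The Cd74 interaction was not called with DESeq2 (adjusted p = 0.0886), with edgeR's robust fit (0.175) or without IFNβ replicate 1 (0.208) or IFNγ replicate 1 (0.0709), and the Cxcl9 interaction was not called without IFNβ replicate 2 (adjusted p = 0.0515, edgeR).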

How the results depend on the processing

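Over the alternatives run, no called value of a leading gene changed sign. The counts of genes called were within 1.5 times the main counts of 1311 higher with IFNβ and 1631 higher with IFNγ, except with library totals, which turned the balance, with 2141 genes higher with IFNβ and 1179 with IFNγ. Leaving out 1 library at a time gave 987 to 1409 and 1301 to 1762, DESeq2 1181 and 1761, and the 6 libraries alone 1026 and 1328. For leading genes, 782 of 796 alternative values kept their side of the threshold; 10 lost the call and 4 gained it. Uncalled values changed sign in 4 of the 796 (B2m, Mlkl and Pdcd1lg2) and in 11 of 536 for the interaction (Ccl5, H2-Aa, Pdcd1lg2 and Socs1). H2-Aa lost its call in 9 of 16 alternatives and Cd74 with the robust fit, while Irf7 gained one in 3 and Cxcl11 in 1 (the 6 libraries alone, adjusted p = 0.0247, edgeR); the cause was not tested. Class II genes called higher with IFNγ numbered 8, with 5 by DESeq2, 4 by the robust fit and 5 without IFNβ replicate 2, IFNβ replicate 3 or IFNγ replicate 2. Replication genes were 3 higher with IFNβ and 4 with IFNγ, and 7 and 2 with library totals. In 250 bases before the start alone, 7.13% of promoters held the ISRE-type and 7.02% the GAS-type letters, a shorter window. Same-numbered IFNγ and IFNβ libraries deviated together at r = 0.0644, 0.256 and 0.102, so the numbers were not taken to pair the samples, although each library correlated best with its own number; a replicate block gave 1349 and 1680 genes. Depth limits genes near 1 CPM, such as Irf7 and Cxcl11.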

Other observations

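Further antiviral genes were higher with IFNβ by under 2-fold to over 3-fold. Tor3a, a torsin ATPase, was at 93.2, 99.9 and 91.9 CPM with IFNγ and 299.7, 307 and 315 CPM with IFNβ, 3.23-fold higher with IFNβ (adjusted p = 9.62e-25, edgeR). Phf11b differed 3.15-fold, Sp100, a nuclear body protein, 2.36-fold, Ifi44 2.13-fold and Samd9l 1.91-fold. Cmpk2, the neighbor of Rsad2, was at 325, 325 and 328 CPM with IFNγ and 670.3, 658 and 625 CPM with IFNβ, and the groups did not overlap. The restriction factors Bst2, which tethers budding virus, and Ifitm3, which blocks entry, differed 1.41-fold and 1.35-fold, and Eif2ak2, the kinase PKR, 1.33-fold. Cgas, the DNA sensor, was at 15.5, 13.1 and 14.6 CPM in vehicle, 17.5, 16.9 and 17.6 CPM with IFNγ and 26.9, 26.1 and 25.5 CPM with IFNβ, 1.51-fold higher with IFNβ.

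Genes of the Ifi200 family, DNA-binding proteins of innate immunity, differed in direction. Ifi204 was 1.23-fold higher with IFNβ, Ifi203 1.32-fold higher with IFNγ, and Ifi211 overlapped between the interferons. Fas, the death receptor, was at 1.25, 1.16 and 1.13 CPM with IFNγ and 0.649, 0.709 and 0.651 CPM with IFNβ in B16F10 cells, a difference that did not pass the test, and at a mean of 10.3 CPM and 0.252 CPM in 6694c2 cells (interaction 4.44, adjusted p = 1.55e-08, edgeR). Ido1, the tryptophan-degrading enzyme known as IFNγ-inducible, had fewer than 10 reads over the 12 B16F10 libraries and was not tested.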
